A study of Rattus norvegicus with 53 samples.

Results

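The comparison set insulin-treated against control cultures of L6 cells, a rat skeletal muscle line, in the second hour after insulin was added. Its members were the 3 arrays titled for insulin at hour 2 and the 3 arrays titled for control at hour 2, 6 of the 53 arrays of an 8-hour course. L6 myoblasts were differentiated into myotubes in low serum and kept in serum-free DMEM for 8 h. The insulin plates then received serum-free DMEM with 20 nM insulin, and the control plates received serum-free DMEM with 0 nM insulin. For each array, RNA of cultures harvested at 80, 100 and 120 min was pooled, so a value is a mean over the second hour. The whole experiment was carried out 3 times on different days with 1 cell line, and the repeats carry the letters a, b and c. The insulin and the control array of a letter were treated as a pair. All cells, controls included, had been deprived of serum, and myotubes in a dish are not mature muscle fibers.

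Levels are given as log2 values from the authors' RMA processing of Affymetrix rat expression arrays, and a difference of 1 is a doubling. A difference is insulin minus control on this log2 scale, as a fitted mean ± SE over the 3 pairs. The SE rests on a spread pooled over all hours. Tests were made with limma, which moderates the variance of each probe set over all 53 arrays. A probe set was called when its p, adjusted by Benjamini-Hochberg over all probe sets tested (the brighter 70.7% on the array), was under 0.05. Each gene is given by its brightest probe set, and levels are not compared between genes. Insulin signals along 2 routes that change transcripts. The PI3-kinase and Akt route phosphorylates FOXO factors, which leave the nucleus, so that genes they drive in starved cells fall. The Ras and ERK route activates factors at the serum response element, which start the immediate early genes, and these in turn bring in feedback inhibitors of ERK.

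At hour 2, 12 probe sets passed. Transcripts of 4 genes rose with insulin, namely Hes1, Csrnp1, Spry4 and Midn, and transcripts of 6 genes fell, namely Pnrc1, Frat2, Tgif1, Bbc3, Sgk1 and Foxo3. The 4 probe sets that rose were 0.0182% of those tested and the 8 that fell were 0.0364%. Over the 11577 genes at their brightest probe set, the shares were 0.0346% and 0.0518%. At an unadjusted p under 0.05, limma gave 476 genes higher with insulin (4.11%) and 978 genes lower (8.45%). The calls depend on the pairing. Without the replicate block limma called 0 probe sets, with 396 higher and 551 lower at an unadjusted p under 0.05. Of the 12 probe sets called, 0 to 2 stayed past the threshold in the fits that left out a letter. Their signs could not change in these fits, since each probe set had the same sign in every letter.

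The labels name the cells as myoblasts of the L6 line, and the pools carried transcripts of differentiated myotubes. Of 36 myotube markers 31 were tested, among them Acta1 at a mean level of 13.48, the embryonic myosin Myh3 at 13.43 and the troponin Tnnt2 at 13.31. Others lay near the lowest level tested, such as Actn3 at 5.16, Mb at 5.27 and Myh8 at 5.32. The summed level of the 31 markers was 16.97, 16.83 and 16.07 with insulin, against 16.98, 16.90 and 16.12 in control, for letters a, b and c. Both arrays of letter c were thus the lowest. Creatine kinase Ckm, for example, measured 10.13, 9.88 and 7.60 with insulin and 10.19, 10.36 and 8.10 in control. Of the markers of other cells, 12 of 12 for fibroblasts, 22 of 24 for proliferating cells, 7 of 12 for macrophages, 6 of 10 for undifferentiated myoblasts, 3 of 10 for adipocytes and 3 of 10 for endothelial cells passed the filter on low levels, with neither Adipoq nor Pecam1 among them. The summed level of the fibroblast markers was 15.38, 14.86 and 15.08 with insulin and 15.49, 15.22 and 15.08 in control.

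The cultures of a letter could also differ before insulin. Across the tested probe sets, the difference at hour 2 correlated with that at time 0 at -0.01 for a, 0.71 for b and 0.27 for c. The time 0 and hour 2 arrays are different arrays of 1 repeat, normalized together. Letter b therefore carried at hour 2 much of an offset it had at time 0. Counts without letter b and with time 0 subtracted are given further on, with values for only a few single genes. Between letters, the hour 2 differences correlated at 0.23 (a and b), 0.22 (a and c) and 0.30 (b and c).

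Of the genes called on the higher side, Hes1, a repressor of the Notch pathway that also oscillates after serum, had levels of 10.23, 9.59 and 9.81 with insulin, against 9.59, 8.74 and 8.75 in control. The lowest insulin array, of letter b, was level with the highest control array, of letter a, and letter a was high in both cultures. The difference was 0.85 ± 0.13 (1.80-fold, adjusted p = 0.0113). Hes1 stood out in time as well, with differences of -0.14 at time 0, 0.20 at hour 1 and 0.07 at hour 3, before 0.58 at hour 4. The hour 3 value rests on letters b and c, since the insulin array of letter a was not in the series.

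Csrnp1, a nuclear protein of the immediate early class, measured 7.61, 7.83 and 7.74 with insulin and 7.03, 7.41 and 7.08 in control. The groups did not overlap, although letter b, with the highest control array, showed the smallest difference. The fitted difference was 0.55 ± 0.10 (adjusted p = 0.0271). It was 0.15 at hour 1 and between 0.15 and 0.27 from hour 3 to hour 8, so hour 2 was its highest pool.

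Spry4, a Sprouty inhibitor of receptor tyrosine kinase signaling, had levels of 8.28, 8.28 and 8.49 with insulin, against 7.55, 7.69 and 7.84 in control. All insulin arrays lay well above all control arrays. The difference of 0.65 ± 0.12 passed the test (adjusted p = 0.0466), against 0.07 at hour 1 and -0.07 at time 0. Midn, which encodes midnolin, a protein that carries short-lived nuclear proteins to the proteasome, had 11.42, 11.06 and 11.28 with insulin and 10.86, 10.76 and 10.59 in control. The groups did not overlap, and letter b again gave the smallest of the 3 differences. Midn rose by 0.51 ± 0.10 (adjusted p = 0.0466).

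Genes on the lower side included regulators of cell death, of transcription and of the insulin signal itself. Bbc3 encodes PUMA, a BH3-only protein that promotes apoptosis and is a known target of p53 and of FOXO3. Its levels were 8.40, 8.24 and 8.44 with insulin, against 9.01, 8.80 and 9.07 in control. The groups were far apart and the differences of the 3 letters lay close together, at -0.61, -0.56 and -0.64. Bbc3 fell by 0.60 ± 0.08 (1.52-fold lower, adjusted p = 0.00388), and at time 0 its difference was -0.24.

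Tgif1, a homeodomain repressor that limits TGF-beta signaling, had levels of 8.73, 8.72 and 8.50 with insulin and 9.53, 9.25 and 9.13 in control. No insulin array reached a control array. Its difference was -0.65 ± 0.09 (adjusted p = 0.00388). From hour 3 to hour 8 it stayed between -0.78 and -0.56.

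Pnrc1, a coactivator of nuclear receptors, had the largest fitted fall of all genes called, at -1.15 ± 0.20 (2.22-fold lower, adjusted p = 0.0271). Its levels were 9.17, 9.13 and 7.66 with insulin, against 10.11, 10.20 and 9.10 in control. The groups overlapped because both arrays of letter c were low, while the pair differences were -0.94, -1.06 and -1.44. Frat2, which binds the kinase GSK3 and acts in the Wnt pathway, had 6.38, 6.66 and 6.42 with insulin and 7.32, 7.78 and 7.30 in control. These groups did not overlap, and the difference was -0.98 ± 0.17 (1.97-fold lower, adjusted p = 0.0271).

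Sgk1, a kinase activated through PI3-kinase like Akt, had levels of 8.46, 8.95 and 8.08 with insulin, against 8.95, 9.31 and 8.88 in control. The array of letter b with insulin lay at the level of the control arrays of a and c, so the groups overlapped, although each pair went down. Sgk1 fell by 0.56 ± 0.11 (adjusted p = 0.0475). Foxo3, the factor that Akt and Sgk1 hold out of the nucleus, had 9.38, 9.03 and 8.35 with insulin and 9.73, 9.37 and 8.96 in control. Here the spread between letters was wider than the difference, and the pairs fell by 0.35, 0.33 and 0.61. The fitted difference was -0.43 ± 0.08 (adjusted p = 0.0475). A further 2 probe sets that fell have no gene symbol in the platform annotation, 1374493_at by 0.72 ± 0.11 and 1374429_at by 0.67 ± 0.13.

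**Figure D1:**
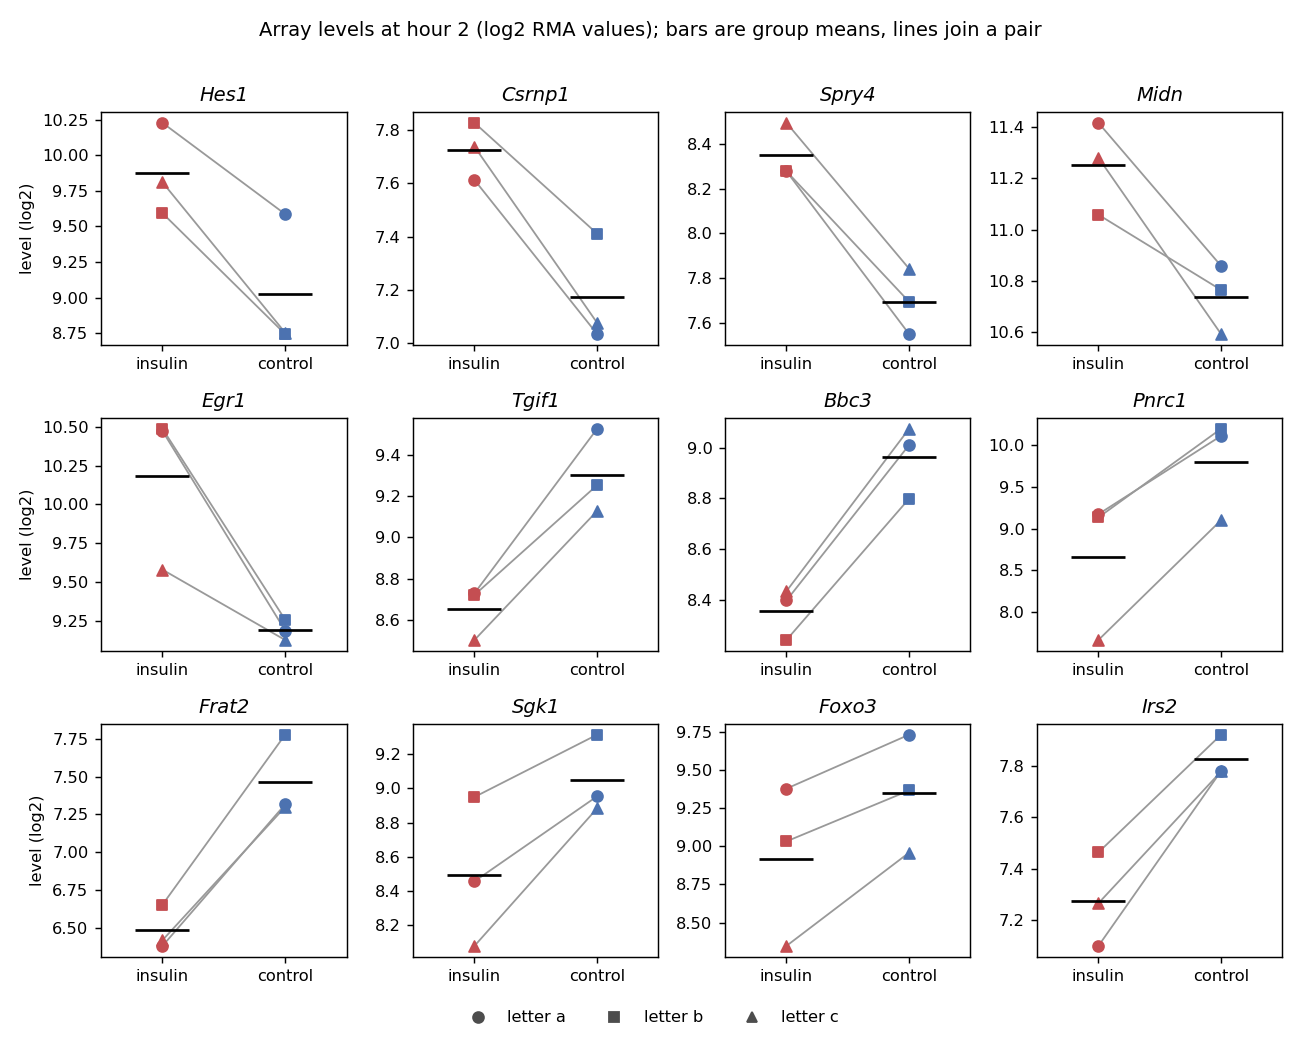
Array levels at hour 2 (log2 RMA values, y axis) of the 10 genes called and of Egr1 and Irs2, with insulin on the left and control on the right of each panel. Symbols mark letters a, b and c, lines join the pair of a letter and bars are group means; each line slopes the same way within a gene, while for Pnrc1, Sgk1 and Foxo3 the groups overlap.

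Just outside the threshold stood Irs2 and Egr1, both at an adjusted p of 0.0520, while Sgk1 and Foxo3, at 0.0475, were just inside it. Irs2, the docking protein that couples the insulin receptor to PI3-kinase, had levels of 7.10, 7.46 and 7.27 with insulin, against 7.78, 7.92 and 7.78 in control. The insulin arrays lay below all control arrays, with a difference of -0.55 ± 0.11. At time 0 and hour 1 the Irs2 differences were 0.07 and 0.00, and from hour 3 to hour 8 they lay between -0.60 and -0.42.

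Egr1, the zinc finger factor that ERK induces, had levels of 10.47, 10.49 and 9.58 with insulin, against 9.19, 9.26 and 9.13 in control. Letters a and b differed by 1.28 and 1.23 and letter c by 0.45. Its fitted difference, 0.99 ± 0.19, was the largest positive one among all genes tested. Pdk4, a kinase that shuts down pyruvate dehydrogenase in the fasted state, measured 5.23, 5.65 and 5.82 with insulin and 6.52, 6.27 and 6.66 in control. The groups did not overlap, and the difference was -0.92 ± 0.18 (adjusted p = 0.0662) after 0.16 at hour 1. A second Pdk4 probe set gave -0.03 ± 0.11, so its fall was seen with 1 of 2 probe sets. That second probe set had a mean level of 5.46, near the lowest level tested (5.04).

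Il6, a cytokine that contracting muscle secretes, had 5.70, 5.23 and 5.81 with insulin and 6.10, 5.91 and 6.67 in control, near the lower end of the tested range. The difference was -0.64 ± 0.13 (adjusted p = 0.0709). Tob1, an antiproliferative protein, measured 10.21, 9.98 and 9.97 with insulin and 9.84, 9.70 and 9.67 in control. Its difference was small but even among letters, at 0.32 ± 0.06 (adjusted p = 0.0684). With 1 probe set per gene in the fit, limma called Irs2, Egr1, Pdk4, Il6 and Tob1 as well, with adjusted p-values between 0.0266 and 0.0396.

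Some genes had fitted differences as large as those of the called genes but wider errors, and none of those in this paragraph passed. Klf10, a Krüppel-like factor known as an early TGF-beta gene, differed by 0.78 ± 0.18 (adjusted p = 0.148), with 0.64, 0.84 and 0.85 in letters a, b and c. Phlda1, a pleckstrin homology-like protein, gave 0.69 ± 0.21, and Tnfaip3, the NF-kappaB inhibitor A20, gave 0.63 ± 0.17. The small GTPase Arl10 gave 0.60 ± 0.17 and the ubiquitin ligase Ube3a 0.55 ± 0.21. Ube3a differed by 1.04 in letter b, but by 0.23 and 0.39 in letters a and c, and its other probe sets gave 0.19 to 0.35. For the Golgi SNARE Gosr1 the difference was 0.91 ± 0.43, but its other probe sets gave 0.18 ± 0.07 and -0.14 ± 0.12. The mitochondrial transcript COX1 gave 0.84 ± 0.34, which came from letter c (1.70) more than from letter a (0.15). Arl10 had the opposite sign at its second probe set (-0.19 ± 0.18).

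On the lower side, Irf2, an interferon regulatory factor, differed by -0.68 ± 0.20, although a second probe set for it gave 0.01 ± 0.10. Nr1d1, the clock repressor REV-ERB alpha, differed by -0.67 ± 0.18, with -1.21, -0.78 and -0.03 in letters a, b and c. Ccng2, a cyclin that rises in quiescent cells, differed by -0.67 ± 0.19, and Ubald1 by -0.65 ± 0.18. None of these 4 genes passed the test at hour 2. Across all genes, the 3 insulin arrays lay above the 3 control arrays in 521 (4.50%) and below them in 735 (6.35%).

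**Figure D2:**
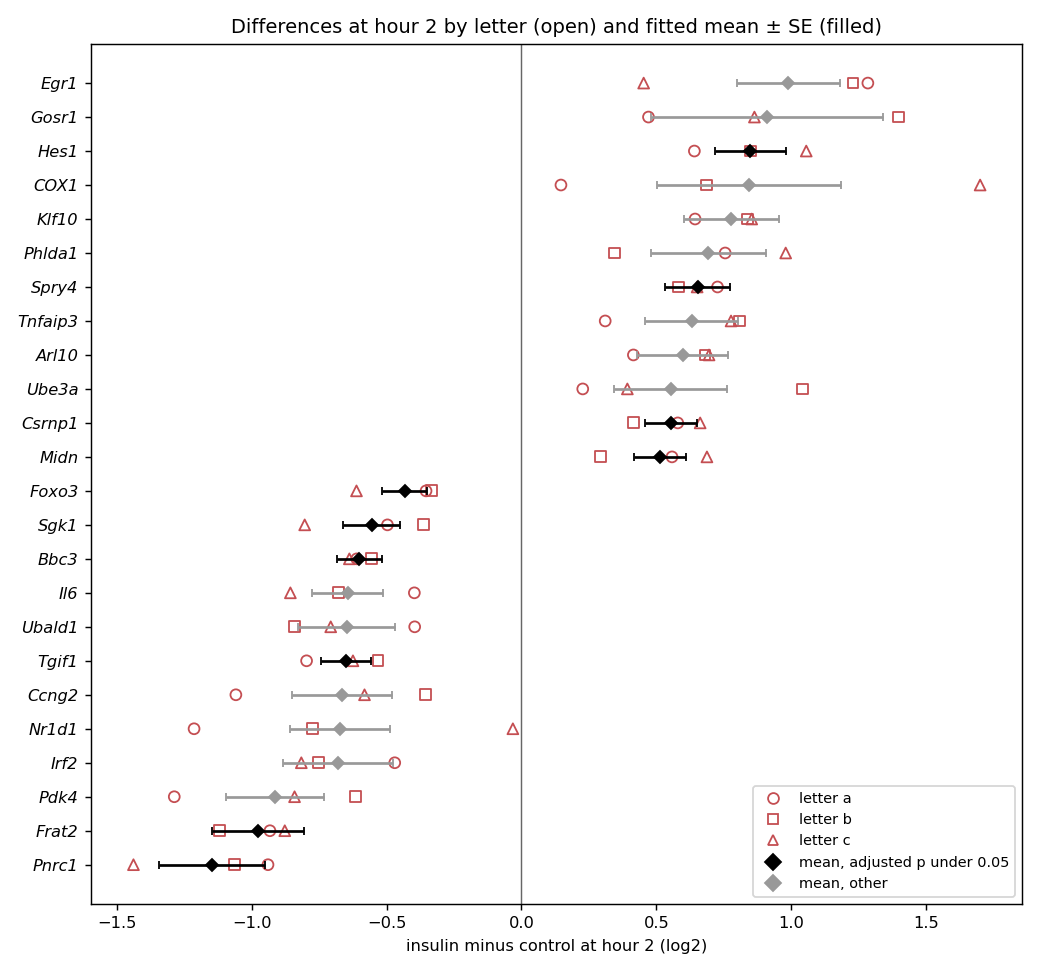
Insulin minus control at hour 2 (log2, x axis) for the 12 genes with the largest higher and the 12 with the largest lower differences under the naming rule (y axis), with open symbols for letters a, b and c and filled diamonds for the fitted mean ± SE. Black diamonds are the 10 genes called; COX1 and Nr1d1 show the widest spread between letters, and Bbc3 the tightest.

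Of the genes at the head of the pathway, none passed. Insr, the insulin receptor, had 6.55, 6.16 and 6.23 with insulin and 6.47, 6.56 and 6.16 in control, a difference of -0.09 ± 0.12. Its second probe set gave 0.27 ± 0.09, so the direction of Insr depends on the probe set. Irs1, the other docking protein of muscle, differed by -0.21 ± 0.15 and Foxo1 by -0.04 ± 0.09. The glucose transporter Slc2a4 (GLUT4) differed by -0.16 ± 0.09 and Slc2a1 (GLUT1) by -0.08 ± 0.11. The Slc2a1 letters disagreed, with 0.20, -0.37 and -0.08.

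The first list holds 29 FOXO factors and genes known to be raised by FOXO in deprived cells, 26 of them tested. Foxo3 was the 1 member called. At an unadjusted p under 0.05, 10 members were lower and 1 was higher, beside 8.45% lower and 4.11% higher over all genes, and the median difference was -0.11, against -0.01 over all genes. Letter by letter the list median was -0.17 (a), -0.15 (b) and -0.15 (c). At time 0, before insulin, the list median was -0.06, against 0.01 over all genes. Members of the list that did not pass singly included Txnip, which restrains glucose uptake, at -0.63 ± 0.15, and Gabarapl1, an autophagy gene, at -0.38 ± 0.09. Txnip differed by -1.09 in letter a but by -0.25 in letter c, whereas Gabarapl1 gave -0.43, -0.32 and -0.39. Pik3ip1, a brake on PI3-kinase, gave -0.46 ± 0.12, and Bcl2l11 (BIM), a partner of PUMA in apoptosis, gave -0.60 ± 0.17. The second probe sets of these 2 genes, at mean levels of 5.29 and 6.00, gave 0.056 ± 0.10 and -0.01 ± 0.09. Of the 26 members 6 had differences above 0, and Tob1 was the one among them at an unadjusted p under 0.05.

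Other lists of this route and of cell death are set beside the same shares over all genes, 8.45% lower and 4.11% higher at the unadjusted level. Among the 34 of 38 atrophy and autophagy genes tested, 0 were called, and the median was -0.08, with 10 lower and 1 higher at the unadjusted level. Of the 32 tested PI3-kinase, Akt and mTOR genes (36 listed), 0 were called, with 7 lower and 2 higher at the unadjusted level, and Phlpp1, a phosphatase that removes Akt phosphate, stood at -0.50 ± 0.13. In the Bcl-2 family, 12 of 17 genes were tested, Bbc3 was the member called, and 3 were lower and 1 higher at the unadjusted level, with a median of -0.14. Beside these lower lists, the myotube markers also had a median of -0.10, with 8 lower and 1 higher at the unadjusted level and 0 called. The median was -0.15 over the 6 markers of undifferentiated myoblasts and -0.10 over the 12 of fibroblasts, with 1 lower at the unadjusted level in each. Medians at time 0 were -0.03 for atrophy and autophagy, -0.05 (hour 2: -0.07) for PI3-kinase, Akt and mTOR, and -0.02 for the Bcl-2 family. They were -0.04, -0.29 and -0.09 for the myotube, myoblast and fibroblast markers, against 0.01 over all genes. The part of the marker shifts in the other lists was not tested. In bulk RNA, fewer cells of a kind and less RNA per cell cannot be told apart.

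The immediate early list had 28 genes, of which 26 were tested and Csrnp1 was called. At an unadjusted p under 0.05, 8 were higher and 2 lower, beside 4.11% higher and 8.45% lower over all genes, and 15 of 26 had a difference above 0. Its median was 0.09, made up of 0.15 (a), 0.03 (b) and 0.08 (c). Zfp36l1, which destabilizes AU-rich transcripts, measured 11.43, 10.96 and 11.20 with insulin and 11.27, 10.17 and 10.92 in control, a difference of 0.41 ± 0.11 drawn mostly from letter b. Myc, a transcription factor of cell growth, had 8.35, 8.25 and 8.01 with insulin and 7.68, 7.87 and 7.80 in control, and its difference was 0.42 ± 0.13. Neither Zfp36l1 nor Myc passed. The 2 lower members were Jun, at -0.40 ± 0.12, and Mafk, at -0.34 ± 0.09, and neither passed. Fos, the textbook member of the class, differed by -0.14 ± 0.16, while its second probe set, at a mean level of 5.17, gave 0.50 ± 0.28.

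Among 13 tested genes of ERK feedback (18 listed), Spry4 was called, and 2 were higher and 2 lower at the unadjusted level, beside 4.11% and 8.45% over all genes. The list median was -0.04, with 7 of 13 below 0. The 2 lower members were Dusp5, at -0.42 ± 0.17, and Dusp3, at -0.29 ± 0.12, and neither passed. A second probe set of Dusp3 gave -0.19 ± 0.13. Dusp6, the phosphatase of cytoplasmic ERK, had 9.59, 9.92 and 9.71 with insulin and 9.13, 9.45 and 9.57 in control, a difference of 0.36 ± 0.10 that did not pass, and its other probe sets gave 0.18 and 0.24. Inhba, the activin A subunit, had a difference of 0.49 ± 0.13, with 0.49, 0.58 and 0.41 by letter and 0.28 ± 0.24 at a second probe set. It did not pass, and its level with insulin ran between 10.64 and 11.61 over the letters. Mef2a, a factor of muscle differentiation, stood at 0.28 ± 0.08, while its other probe sets lay between -0.00024 and 0.09.

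The lists for growth and synthesis had medians between -0.10 and 0.09 at hour 2, against -0.01 over all genes. Ribosome biogenesis, with 77 of 81 genes tested, had 0 called, 3 higher and 6 lower at the unadjusted level, and a median of 0.02. Over all genes, 4.11% were higher and 8.45% lower at that level. The 21 tested aminoacyl-tRNA synthetases had a median of -0.05 and the 29 tested ATF4 genes a median of -0.10, with 6 lower and 1 higher at the unadjusted level. Sterol synthesis, with 24 of 29 genes tested, had a median of 0.09, and Idi1, an enzyme of the isoprenoid route, stood at 0.42 ± 0.16. At time 0, before insulin, the medians were 0.05 for ribosome biogenesis, -0.04 for the synthetases, -0.10 for ATF4 and -0.09 for sterol synthesis. Maf1, the repressor of RNA polymerase III, stood at -0.31 ± 0.08. None of the genes named in this paragraph passed.

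**Figure D3:**
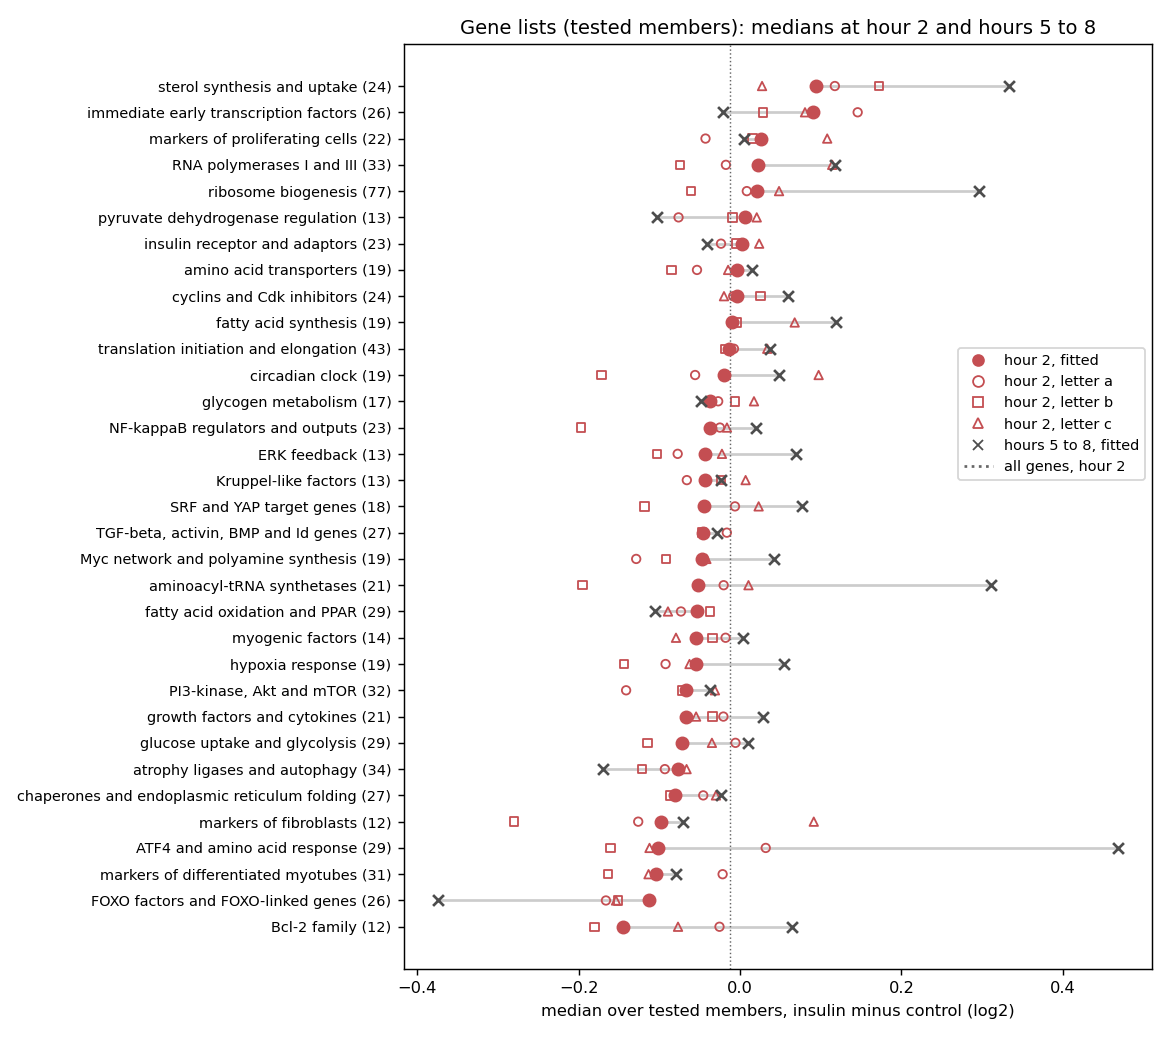
Median insulin minus control difference (log2, x axis) over the tested members of each gene list (y axis, number tested in brackets), with filled circles for hour 2, open symbols for letters a, b and c at hour 2, crosses for hours 5 to 8 and a dotted line for all genes at hour 2. The FOXO list lies at -0.11 and the ATF4 list at -0.10 at hour 2, against -0.37 and 0.47 at hours 5 to 8. Their medians at time 0, not drawn, were -0.06 and -0.10.

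Promoter sequences of these genes were taken from RefSeq on the GRCr8 build, from 250 bases before to 50 bases after the start, on the strand of the gene. Of 32 genes looked up, 20 had an entry. Of all 27457 promoters of the table, 1.64% held a CArG box, the binding motif of the serum response factor, and 3.76% held GTAAACA or TGTTTAC, read on both strands as the FOXO motif. The FOXO motif was in 4 of 23 promoters of the FOXO list (17.4%), namely those of Bcl2l11, Pik3ip1, Insr and Trim63. The CArG box was in 4 of 18 promoters of the immediate early list (22.2%), namely those of Egr1, Egr2, Srf and Zfp36. These lists were drawn up from known targets, so the shares describe the lists and add no evidence. The E-box CACGTG was in 6.65% of all promoters, the CRE TGACGTCA in 1.91% and the AP-1 motif TGANTCA in 7.33%. A match is a run of letters and not a bound site.

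The promoter of Egr1 is shown because its gene had the largest positive difference, and those of Bcl2l11 and Pik3ip1 because they are FOXO-list genes on the lower side with a motif; Frat2 was the one called gene with an entry and a match. Capitals mark the motifs, which are 2 CArG boxes in Egr1 that begin 105 and 83 bases before the start, 1 FOXO motif each in Bcl2l11 (204 bases before the start) and Pik3ip1 (at the start base), and 1 E-box in Frat2 (138 bases before the start).
Egr1, GRCr8 chr18:26736828-26737127, plus strand: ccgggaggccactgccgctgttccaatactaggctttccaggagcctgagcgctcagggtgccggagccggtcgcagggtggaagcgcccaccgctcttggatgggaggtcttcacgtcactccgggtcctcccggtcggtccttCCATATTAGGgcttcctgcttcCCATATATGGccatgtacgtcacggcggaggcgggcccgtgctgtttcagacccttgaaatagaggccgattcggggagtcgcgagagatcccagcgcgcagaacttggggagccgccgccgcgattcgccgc
Bcl2l11, GRCr8 chr3:135819792-135820091, plus strand: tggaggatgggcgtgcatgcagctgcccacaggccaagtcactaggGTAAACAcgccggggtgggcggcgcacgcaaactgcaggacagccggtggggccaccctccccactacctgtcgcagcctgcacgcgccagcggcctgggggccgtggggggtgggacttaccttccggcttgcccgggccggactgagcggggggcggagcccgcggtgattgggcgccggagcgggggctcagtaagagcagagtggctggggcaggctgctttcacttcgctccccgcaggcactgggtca
Pik3ip1, GRCr8 chr14:82428065-82428364, plus strand: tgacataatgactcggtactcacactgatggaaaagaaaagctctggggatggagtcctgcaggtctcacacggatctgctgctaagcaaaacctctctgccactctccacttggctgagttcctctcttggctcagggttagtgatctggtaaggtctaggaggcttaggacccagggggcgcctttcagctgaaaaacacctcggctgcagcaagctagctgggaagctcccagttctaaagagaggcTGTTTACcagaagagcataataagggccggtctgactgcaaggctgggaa
Frat2, GRCr8 chr1:250605730-250606029, minus strand: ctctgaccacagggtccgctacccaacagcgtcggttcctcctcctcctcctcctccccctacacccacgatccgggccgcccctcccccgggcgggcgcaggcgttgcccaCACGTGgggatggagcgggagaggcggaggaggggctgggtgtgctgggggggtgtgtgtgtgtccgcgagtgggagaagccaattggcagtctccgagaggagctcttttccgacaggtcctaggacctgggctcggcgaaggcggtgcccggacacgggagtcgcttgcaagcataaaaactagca

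Insr also carries the FOXO motif, 100 bases before its start, and its difference was near 0, whereas Il6 carries a CRE 162 bases before its start and Tnfaip3 an AP-1 motif and an E-box. The called genes Hes1, Spry4, Midn and Sgk1 had an entry and none of the motifs in this window.

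Set against the pool before it, hour 2 was not separable after adjustment. For the difference at hour 2 minus that at hour 1, 0 probe sets passed limma's test (0%), with 299 at an unadjusted p under 0.05. For hour 2 minus time 0, again 0 passed (0%), with 700 at an unadjusted p under 0.05, and the median SE of this contrast was 0.16, against 0.11 for hour 2 alone. The 10 genes called at hour 2 kept their sign in both contrasts. Pdk4 differed by -1.07 ± 0.26 and Irs2 by -0.55 ± 0.15 between hours 2 and 1. For Hes1 the difference from time 0 was 0.99, and for Bbc3 -0.36, against -0.60 for Bbc3 at hour 2 alone. It was -0.66 ± 0.16 for 1374493_at and -0.57 ± 0.18 for 1374429_at.

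Set against the late response, hour 2 differed widely. The mean difference over hours 5 to 8 was subtracted from that at hour 2. In limma's test of this contrast, 235 probe sets (1.07%) passed as more positive and 267 (1.22%) as more negative at hour 2. This count leaned on the repeats, since it was 502 in all but 188, 38 and 4 when letter a, b or c was left out. Hour 2 and hours 5 to 8 share no array.

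Several genes had differences that were nearer to 0, or of the other sign, over hours 5 to 8 than at hour 2. Of those below, Bbc3 passed at hour 2, whereas Tob1, Zfp36l1 and Fgf7 did not. Bbc3, at -0.60 in hour 2 and -0.47 at hour 3, had a mean of -0.06 over hours 5 to 8, and the contrast was -0.54 ± 0.09 (adjusted p = 0.0034). Tob1, at 0.32, averaged -0.10 later, a contrast of 0.42 ± 0.07 (adjusted p = 0.00299). Zfp36l1 averaged -0.12 later (contrast 0.53 ± 0.12, adjusted p = 0.0224). Fgf7, a fibroblast growth factor, was at 0.44 in hour 2 and -0.25 later (0.69 ± 0.17, adjusted p = 0.0359), but it had stood at 0.34 at time 0, before insulin.

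For other called genes the contrast did not pass. Tgif1 was at -0.65 in hour 2 and -0.59 over hours 5 to 8, Pnrc1 at -1.15 and -1.17, Sgk1 at -0.56 and -0.53, Foxo3 at -0.43 and -0.40, and Irs2 at -0.55 and -0.53. A contrast that misses the threshold does not show that both times were alike, and its SE was 0.22 for Pnrc1 and 0.09 to 0.12 for the other 4 genes. Hes1 gave 0.42 ± 0.15 (adjusted p = 0.133) and Csrnp1 0.37 ± 0.11 (adjusted p = 0.0684).

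**Figure D4:**
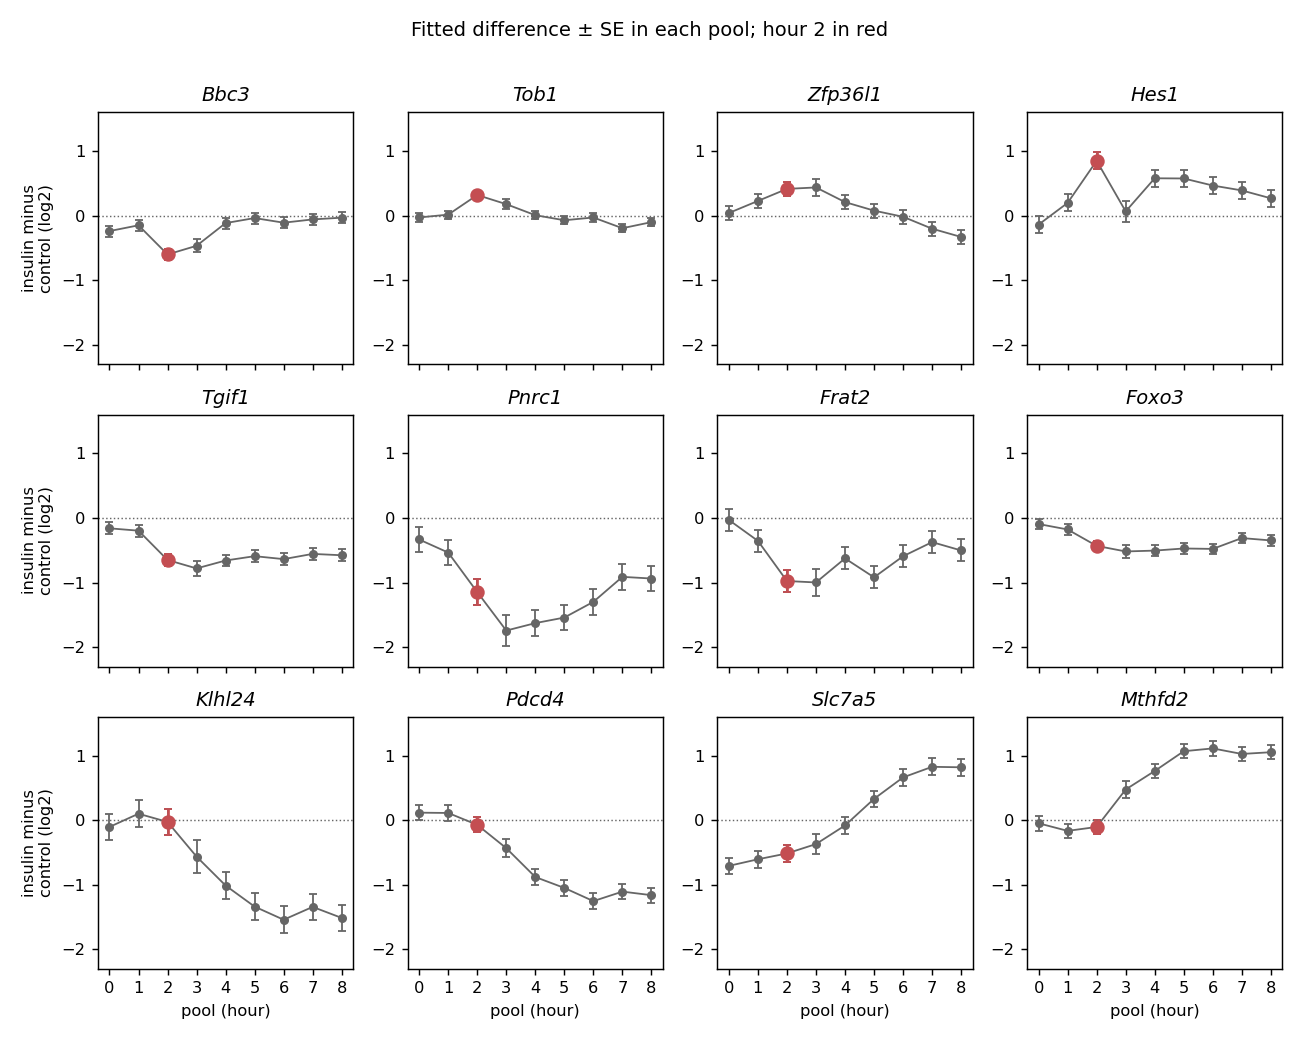
Fitted insulin minus control difference ± SE (log2, y axis) in each pool of the course (x axis, pool hour, 0 before insulin) for 12 genes, with hour 2 in red. Bbc3 is lowest at hour 2 and near 0 from hour 4, Tgif1 and Foxo3 stay low to hour 8, and Klhl24, Pdcd4 and Mthfd2 are near 0 at hour 2 and move later.

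Other genes passed this contrast with the larger of their differences over hours 5 to 8. Mthfd2, a mitochondrial enzyme of folate metabolism and an ATF4 target, measured 8.60, 8.43 and 8.41 with insulin at hour 2, against 8.56, 8.67 and 8.52 in control. The difference was -0.10 at hour 2 and 1.06 over hours 5 to 8, a contrast of -1.17 ± 0.12 (adjusted p = 6.99e-05), the smallest p of all probe sets in this contrast. Trib3, a pseudokinase that ATF4 raises and that inhibits Akt, was at -0.11 and 0.96, and Srm, the spermidine synthase, at -0.35 and 0.71. Slc2a1, at -0.08 in hour 2, averaged 0.57 later (contrast -0.65 ± 0.12, adjusted p = 0.00645).

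On the lower side, Klhl24, a Kelch-like adaptor of a ubiquitin ligase, was at -0.03 in hour 2 and -1.43 later, Tcp11l2 at 0.03 and -1.34, and Atosa at 0.01 and -1.19. Pdcd4, an inhibitor of translation initiation that insulin signaling degrades, measured 8.78, 8.68 and 8.38 with insulin at hour 2 and 9.07, 8.55 and 8.44 in control. Its difference was -0.07 at hour 2 and -1.14 later (contrast 1.07 ± 0.13, adjusted p = 0.000212). Zc3h6, a zinc finger protein, was at 0.38 and -0.66. Pik3ip1 and Ndrg1, a gene of hypoxia and differentiation, were at -0.46 and -0.36 in hour 2, where neither passed, and averaged -1.04 and -1.21 later. Their second probe sets gave 0.06 ± 0.10 and 0.06 ± 0.17 at hour 2. The contrasts of these 2 genes passed, at 0.58 ± 0.13 and 0.84 ± 0.11.

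Another group had opposite signs at the 2 times. Slc7a5, the large neutral amino acid transporter, measured 8.84, 8.29 and 7.72 with insulin at hour 2, against 9.02, 9.03 and 8.36 in control. It was at -0.51 in hour 2 and 0.66 later, but its difference at time 0 was -0.71, so the lower level preceded insulin. Atf5, a factor of the ATF4 family, was at -0.66 and 0.36, with -0.32 at time 0. Nfil3, a clock output repressor, was at -0.41 and 0.42 (contrast -0.83 ± 0.14, adjusted p = 0.00303), with -0.16 at time 0. Pck2, the mitochondrial PEPCK, was at -0.50 and 0.49, with -0.26 at time 0. None of the hour 2 values of these 4 genes passed the test on their own.

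By list, the counts are of genes whose contrast passed at an adjusted p under 0.05. Of 29 tested ATF4 genes, 11 passed as more negative at hour 2 than at hours 5 to 8 and 0 as more positive. The ATF4 medians were -0.10 and 0.47, after -0.10 at time 0. In ribosome biogenesis it was 23 of 77 against 0, with medians of 0.02 and 0.30; Nle1, a factor of the large subunit, stood at -0.23 in hour 2 and 0.27 later. In the aminoacyl-tRNA synthetases it was 8 of 21 against 0, among them Vars1 (-0.41 and 0.34) and Sars1 (-0.16 and 0.30). In the FOXO list 3 of 26 genes passed as more positive at hour 2 and 0 as more negative, with medians of -0.11 and -0.37. Fatty acid synthesis had 3 of 19 more negative, among them the carboxylase Acaca (-0.16 and 0.23), and of 43 translation factors 1 was more negative, the exchange factor subunit Eif2b2 (-0.15 and 0.13), with 2 more positive. Over all 11577 genes, 150 passed as more positive and 182 as more negative at hour 2. Over all probe sets the shares that passed were 1.07% and 1.22%.

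**Figure D5:**
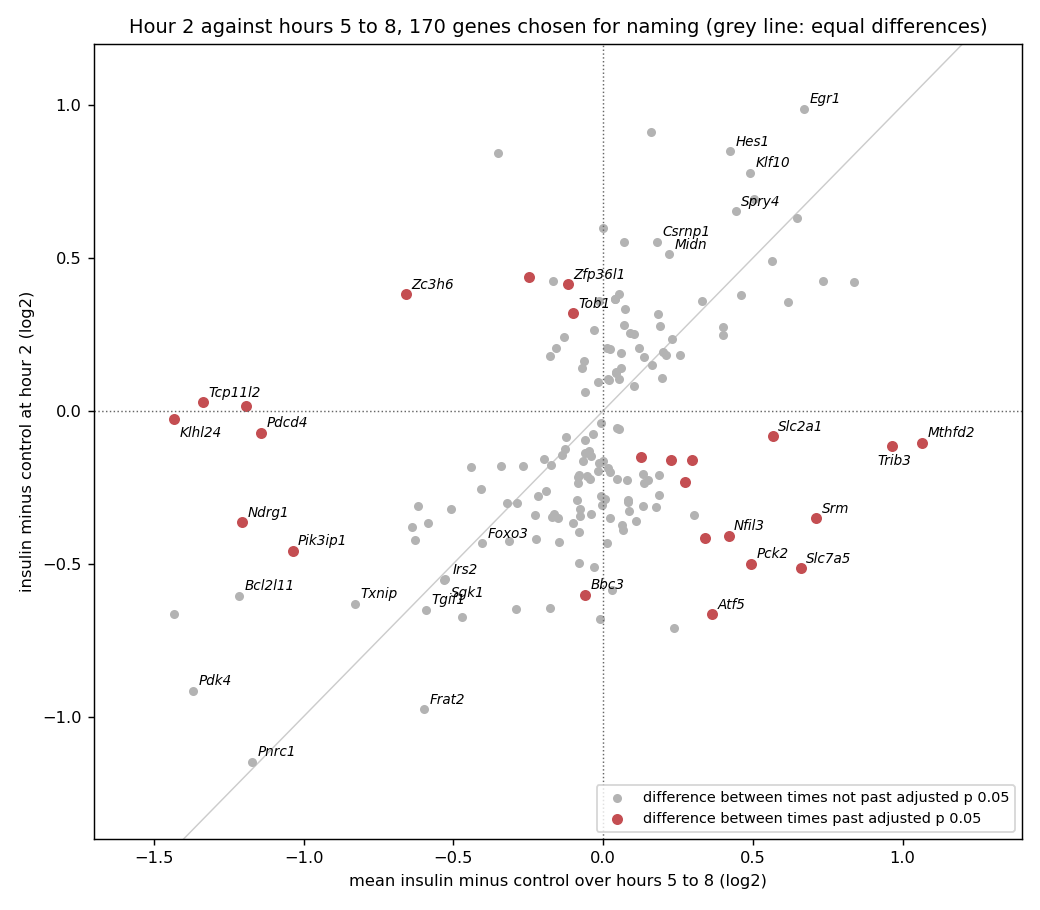
Insulin minus control at hour 2 (log2, y axis) against the mean over hours 5 to 8 (log2, x axis) for the 170 genes chosen for naming, with red points where the difference between the times passed the test and a grey line where both are equal. Klhl24, Pdcd4 and Tcp11l2 lie near 0 at hour 2 and below -1 later, Mthfd2 and Trib3 near 0 and then high, and Pnrc1, Irs2 and Foxo3 close to the line.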

How the data were processed

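The deposited table holds log2 values that the authors made with RMA, with background correction and quantile normalization over the arrays (software version not given in the sources used here), for 31099 probe sets on 53 arrays. RMA compresses small differences at low levels. No column was left unassigned. Symbols came from the platform annotation, in which 20832 probe sets had 1 symbol, 436 several and 9831 none. The 57 manufacturer's controls were left out and the 70.7% of the other probe sets with the highest mean, the number that the study tested, were kept, which set a lowest mean level of 5.04. Detection calls were not used here.

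limma 3.58.1 in R 4.3.3 was fitted to all 53 arrays with 1 term per letter and hour as a block, an insulin effect per hour and a variance trend, leaving 17 residual degrees of freedom. The test was two-sided, with Benjamini-Hochberg adjustment over the probe sets kept. The letters mark repeats of the experiment on different days. At hour 2 the deviations of the paired arrays from their group means correlated at 0.72, 0.36 and 0.68 in letters a, b and c. P-values rest on the spread between paired differences, pooled over all hours of these 3 repeats of 1 cell line. The fit treats the hours of a letter as independent. The differences at time 0 and hour 2 correlated at 0.71 in letter b and 0.27 in letter c, so the p-values can be too small. The number of arrays limits the precision.

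Genes named are all those called, the largest other differences with 1 sign in the 3 letters and no overlap between groups up to 12 a direction, up to 4 members of each list with the smallest p, 11 set genes of the pathway, and the 5 largest of each sign in the hour 2 minus hours 5 to 8 contrast. Jun was named outside this rule, as the other lower member of the immediate early list. Members and lists were chosen with earlier results of these data known. Lists are given by counts and medians, with no set test. The script was tested on simulated data. Alternatives were other blocks, arrays, filters and variance models, 1 probe set per gene, and leaving out each letter. Single genes were also given at their second brightest probe set and with time 0 subtracted. Leaving out the letter b arrays of hours 0 to 5 was chosen after seeing the data.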

Additional observations from a re-analysis of the deposited data

Results flagged for a closer look

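The genes below had a difference between insulin and control at hour 2 that differed from the mean difference over hours 5 to 8, by limma's test of the difference itself on 53 arrays. Values are the hour 2 difference minus the later one, on the log2 scale. Those more positive at hour 2 were Klhl24 (1.41), Tcp11l2 (1.36), Atosa (1.21), Pdcd4 (1.07), Zc3h6 (1.04), Ndrg1 (0.84), Fgf7 (0.69), Pik3ip1 (0.58), Zfp36l1 (0.53) and Tob1 (0.42). Those more negative at hour 2 were Slc7a5 (-1.17), Mthfd2 (-1.17), Trib3 (-1.08), Srm (-1.06), Atf5 (-1.03), Pck2 (-0.99), Nfil3 (-0.83), Vars1 (-0.75), Slc2a1 (-0.65), Bbc3 (-0.54), Nle1 (-0.51), Sars1 (-0.46), Acaca (-0.39) and Eif2b2 (-0.28). Of these 24 genes, 3 (Atosa, Pdcd4 and Mthfd2) passed without the replicate block, and 1 (Mthfd2) passed when letter c was left out. With 3 arrays a group, single arrays were not tested as outliers.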

How the results depend on the processing

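The counts at hour 2 were small and moved with the model. The 4 probe sets higher and 8 lower became 0 and 0 with no replicate block, 1 and 7 with an additive replicate block, 0 and 0 with a replicate block or no replicate block on the 6 arrays of hour 2, and 2 and 5 with no filter. With no variance trend they were 3 and 5, and with 1 probe set per gene 6 and 10, namely the 10 genes called before with Irs2, Egr1, Pdk4, Il6, Tob1 and Mettl26. Leaving out a letter gave 0 to 1 higher and 0 to 2 lower, and without letter b at hours 0 to 5 there were 1 higher and 2 lower. The signs of the 12 probe sets could not change in these fits. With all 6 arrays of hour 2 the fitted difference is the same number, and each probe set had 1 sign in all 3 letters. Of the 12, 7 stayed called with the additive block, which also called Irs2, and 7 with no filter. Fewer arrays or more probe sets tested are part of these alternatives; otherwise the cause was not tested. Counts for hour 2 minus hour 1 stayed at 0, as did those for hour 2 minus time 0 except 1 without letter b at hours 0 to 5. For hour 2 minus hours 5 to 8, the 502 probe sets became 8 with no replicate block, 4 to 188 without a letter and 64 without letter b at hours 0 to 5.

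Among genes, the second brightest probe set turned the sign of Arl10 (-0.19), Irf2 (0.011), Fos (0.50), Insr (0.27) and Pik3ip1 (0.056), and brought Pdk4 to -0.03, Bcl2l11 to -0.01 and Gosr1 to 0.18. Insr also turned on subtracting time 0 (0.0030). Leaving out a letter gave -0.17 to 0.073 for Insr and -0.22 to 0.062 for Slc2a1, both turned by letter b, which gave the same values (0.073 and 0.062) when left out at hours 0 to 5 only, and -0.26 to 0.018 for Fos, turned by letter c. Low probe sets near 5 lie close to the array's background. The second probe sets of Pdk4, Fos and Pik3ip1 had mean levels of 5.46, 5.17 and 5.29. The falls of Pdk4 and Il6 were measured at low levels, and whether their size is understated or overstated was not tested.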
